A study of Mus musculus with 16 samples.

Results

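Microglia, the resident macrophages of the central nervous system, take on a distinct expression program near dying neurons, amyloid and damaged myelin, and 10 genes of this disease-associated microglia program were examined in mouse spinal cord. They were *Trem2*, *Tyrobp*, *Cst7*, *Clec7a*, *Itgax*, *Lpl*, *Axl*, *Spp1*, *Gpnmb* and *Igf1*, 10 of 18167 genes in the table, and none of the 10 was missing. The genes were selected on their values in the end-stage mice of these same data, so every comparison with those mice is given for them as a description, and no test result is read for them.

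RNA-Seq was performed on whole spinal cords of 16 male mice that carry a human profilin 1 transgene. Mutant mice (C57BL/6N mice with the transgene Tg(Prnp-PFN1*G118V)838Kiaei/J) express the ALS-linked hPFN1 G118V protein, and control mice (C57BL/6N mice with the transgene Tg(Prnp-PFN1)850Kiaei/J) express the unchanged human protein, hPFN1 WT, so the controls also overexpress human profilin 1. Both transgenes are driven by the mouse prion protein promoter, which is active far beyond motor neurons, and each genotype is represented by 1 transgenic line. The wild-type young (WY) and mutant young (MY) groups held 3 mice each, all 50 days old, an age before symptoms in mutants. The 5 mutant old (MO) mice were 198, 190, 245, 224 and 175 days old (MO1 to MO5) and had reached end stage, defined by loss of the righting reflex. The 5 wild-type old (WO) mice were 190 days old (WO1 to WO3) or 294 days old (WO4 and WO5).

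TREM2 is a surface receptor of myeloid cells that binds lipids, lipoproteins and debris, and it has no signaling tail of its own. It signals through TYROBP (also called DAP12), a small transmembrane adaptor whose phosphorylated motif recruits the kinase SYK. In mouse models of neurodegeneration, microglia lower their homeostatic genes in an early step that does not need TREM2, and turn on phagocytic, lysosomal and lipid-handling genes in a later step that does.

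Levels were log2(1 + FPKM) values as the authors deposited them, already adjusted for library batch with ComBat, and a log2 fold change was the second group's mean minus the first group's. FPKM is scaled for transcript length, which allows levels of different genes to be set side by side, but 1 was added before the logarithm, so fold changes of genes near or under 1 FPKM are understated. The number of reads behind a single gene was unknown, so the spread between mice was the only measure of precision. All 10 genes averaged 1 or more across all mice, but *Cst7*, *Clec7a*, *Itgax* and *Gpnmb* reached it only through the MO mice. All WY and MY libraries and MO1 to MO3 and WO1 to WO3 belonged to batch 1, whereas MO4, MO5, WO4 and WO5 belonged to batch 2. In WO mice batch and age cannot be told apart, because both batch 2 mice were 294 days old.

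The library MO5 went against its label. All mice were labeled male, but *Xist*, which is transcribed from the inactive X chromosome of females, was at 3.21 in MO5 and at most at 0.37 in the 15 other mice. The Y-linked gene *Ddx3y* was at 1.95 in MO5 and at least at 4.06 elsewhere, and *Uty* (1.05 against at least 2.03), *Eif2s3y* (1.82 against at least 3.66) and *Kdm5d* (1.07 against at least 2.16) were low as well. Fold changes of the 10 genes and WO vs. MO counts of the pathway lists are therefore also given without it. Most other values with MO mice are given only with MO5 included.

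To describe the end stage, MO mice were set against WO mice (WO vs. MO) and against young mutants (MY vs. MO), and these comparisons share the MO mice. For all 10 genes, the lowest of the 5 MO mice was above the highest of the 11 other mice, a pattern seen in 7.58% of all genes (1377 of 18167). Differential expression was called with limma where the Benjamini-Hochberg FDR was 0.05 or less and the change 1.5 times or more, and 10 of 10 genes passed in WO vs. MO, where 4.08% of all genes were called higher and 0.517% lower in MO. In MY vs. MO the count was also 10 of 10, beside 4.11% of all genes called higher and 0.787% called lower. Because the genes were chosen by these values, passing follows from the choice and nothing is read from either count. Median log2 fold changes over the 10 genes were 2.71 in WO vs. MO and 2.75 in MY vs. MO, against 4e-04 and 0.0047 over all genes.

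*Trem2* (chromosome 17, 48346401 to 48354147, GRCm38), the receptor, was measured at 6.13, 6.60, 7.02, 5.88 and 6.26 in MO1 to MO5. The 5 WO mice were at 3.74, 3.88, 4.00, 3.42 and 3.20, the MY mice at 3.56, 3.81 and 3.60 and the WY mice at 3.96, 3.56 and 3.75. The MO mice stood apart from the 3 other groups, whose ranges overlapped. Its log2 fold change was 2.73 (SE 0.22) in WO vs. MO and 2.72 (SE 0.23) in MY vs. MO. Within batch 1 the WO vs. MO value was 2.71 and within batch 2 it was 2.76, and without MO5 it was 2.76. Spinal cord RNA holds many cell types, so more cells of a type and more RNA per cell cannot be told apart for this or any other gene here.

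*Tyrobp* (chromosome 7, 30413760 to 30417585), the adaptor, reached 7.50, 8.55, 8.80, 7.72 and 7.81 in MO1 to MO5. Levels of 5.53, 5.83, 6.01, 4.87 and 4.67 were found in WO1 to WO5, 5.03, 5.42 and 5.34 in MY mice and 5.53, 5.10 and 5.45 in WY mice. Every MO mouse was again above all others, and WO4 and WO5 were the lowest of the 16 mice. *Tyrobp* differed by 2.70 (SE 0.32) in WO vs. MO and by 2.81 (SE 0.30) in MY vs. MO, with WO vs. MO values of 2.49 in batch 1, 3.00 in batch 2 and 2.76 without MO5. The adaptor was more abundant than its receptor in each of the 16 mice.

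*Cst7* (chromosome 2, 150570415 to 150578944) encodes cystatin F, an inhibitor of lysosomal cysteine proteases. Its level was 4.93, 5.56, 6.17, 4.20 and 4.75 in MO1 to MO5, against 0.91, 0.59, 0.73, -0.41 and -0.12 in WO1 to WO5. In young mice it was 0.61, 0.79 and 0.51 (MY) and 0.36, 0.54 and 0.55 (WY). The transcript was thus near the bottom of the scale in all 11 mice that were not at end stage, and WO4 and WO5 were below 0, which log2(1 + FPKM) cannot be before a batch adjustment. The WO vs. MO difference of 4.78 (SE 0.37) ranked 1 among all 18167 genes, and MY vs. MO gave 4.49 (SE 0.39). Batch 1 gave 4.81, batch 2 4.74 and the comparison without MO5 4.88.

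*Clec7a* (chromosome 6, 129461591 to 129472779) encodes Dectin-1, a C-type lectin receptor for beta-glucans that also signals through SYK. MO1 to MO5 were at 4.47, 5.35, 5.52, 4.27 and 4.24, and WO1 to WO5 at 1.02, 0.98, 1.04, 0.17 and 0.08. Young mice had 0.88, 1.03 and 0.94 (MY) and 0.99, 1.09 and 1.09 (WY). Among the mice not at end stage, 9 lay close to 1 and only the batch 2 mice WO4 and WO5 were near 0. The log2 fold change was 4.11 (SE 0.31) in WO vs. MO (4.10 in batch 1, 4.13 in batch 2, 4.24 without MO5) and 3.82 (SE 0.31) in MY vs. MO.

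*Itgax* (chromosome 7, 128129547 to 128150657) encodes CD11c, the alpha chain of an integrin that pairs with the beta chain ITGB2. It was at 2.66, 3.23, 4.10, 2.85 and 2.96 in MO1 to MO5 and at 0.41, 0.41, 0.32, -0.27 and -0.32 in WO1 to WO5. MY mice were at 0.39, 0.44 and 0.31 and WY mice at 0.33, 0.55 and 0.45. No mouse outside the MO group exceeded 0.55, and MO3 was the highest by a wide margin. WO vs. MO gave 3.05 (SE 0.27), with 2.95 in batch 1, 3.20 in batch 2 and 3.10 without MO5, and MY vs. MO gave 2.78 (SE 0.29). With 0.1 in place of 1 added to FPKM, the WO vs. MO value became 5.13. The same change gave 6.64 for *Cst7*, 5.58 for *Clec7a*, 5.65 for *Gpnmb* and 2.19 for *Igf1* in WO vs. MO.

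*Gpnmb* (chromosome 6, 49036546 to 49070929), a transmembrane glycoprotein of lysosome-rich phagocytes, was the most variable of the genes among end-stage mice. Its levels were 5.53, 5.10, 6.53, 3.41 and 4.86 in MO1 to MO5, an SD of 1.13. WO1 to WO5 were at 0.99, 1.01, 0.90, 0.34 and 0.23, MY mice at 0.90, 0.94 and 0.98 and WY mice at 0.93, 0.90 and 0.94. MO4 was far below the other MO mice but higher than any of the 11 mice not at end stage. The difference was 4.39 (SE 0.47) in WO vs. MO and 4.14 (SE 0.57) in MY vs. MO, and it was smaller in batch 2 (3.85), which holds MO4, than in batch 1 (4.75). Without MO5 the WO vs. MO value was 4.45.

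*Spp1* (chromosome 5, 104435118 to 104441050) encodes osteopontin, a secreted ligand of integrins and CD44 that spinal motor neurons also produce. It was the most abundant of the 10 genes in every group, with 8.16, 8.86, 9.05, 8.26 and 8.40 in MO1 to MO5 and 7.40, 7.30, 7.26, 6.72 and 6.84 in WO1 to WO5. MY mice had 7.18, 7.22 and 7.13 and WY mice 7.05, 7.05 and 7.11. The gap between MO1, the lowest MO mouse, and WO1, the highest WO mouse, was under 1 log2 unit. *Spp1* differed by 1.44 (SE 0.20) in WO vs. MO, by 1.37 in batch 1, by 1.55 in batch 2 and by 1.48 without MO5. The MY vs. MO value was 1.37 (SE 0.20).

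*Igf1* (chromosome 10, 87858265 to 87937042) encodes insulin-like growth factor 1, a trophic factor for motor neurons. MO1 to MO5 were at 2.38, 2.65, 2.98, 1.88 and 2.60 and WO1 to WO5 at 0.98, 1.05, 1.20, 0.80 and 0.77. In MY mice it was at 1.07, 1.14 and 1.18 and in WY mice at 0.95, 1.08 and 1.01. MO4 was the lowest MO mouse, and *Igf1* had the lowest mean of the 10 genes in the MO group. The differences were 1.54 (SE 0.18) in WO vs. MO (1.60 in batch 1, 1.46 in batch 2, 1.52 without MO5) and 1.37 (SE 0.21) in MY vs. MO.

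*Lpl* (chromosome 8, 68880491 to 68907448) encodes lipoprotein lipase, which releases fatty acids from lipoprotein triglycerides. MO1 to MO5 were at 3.76, 4.40, 4.79, 3.91 and 3.90, whereas WO1 to WO5 were at 1.87, 1.83, 1.79, 1.60 and 1.32. MY mice were at 2.21, 1.96 and 2.10 and WY mice at 2.10, 2.12 and 2.17. Besides the high MO mice, all 5 WO mice lay below all 6 young mice. The log2 fold change was 2.47 (SE 0.19) in WO vs. MO (2.49 in batch 1, 2.44 in batch 2, 2.53 without MO5) and 2.06 (SE 0.22) in MY vs. MO.

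*Axl* (chromosome 7, 25757273 to 25788705) encodes a receptor tyrosine kinase of the TAM family, which mediates uptake of apoptotic cells. It was at 4.96, 5.10, 5.34, 4.86 and 5.08 in MO1 to MO5 and at 4.08, 4.11, 4.07, 3.92 and 3.84 in WO1 to WO5. Young mice were at 4.09, 4.07 and 4.12 (MY) and 4.07, 4.19 and 4.16 (WY). Its spread was small in all groups, and its difference was the smallest of the 10, at 1.07 (SE 0.09) in WO vs. MO and 0.98 (SE 0.10) in MY vs. MO. The WO vs. MO value was 1.05 in batch 1, 1.09 in batch 2 and 1.06 without MO5.

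**Figure D1:**
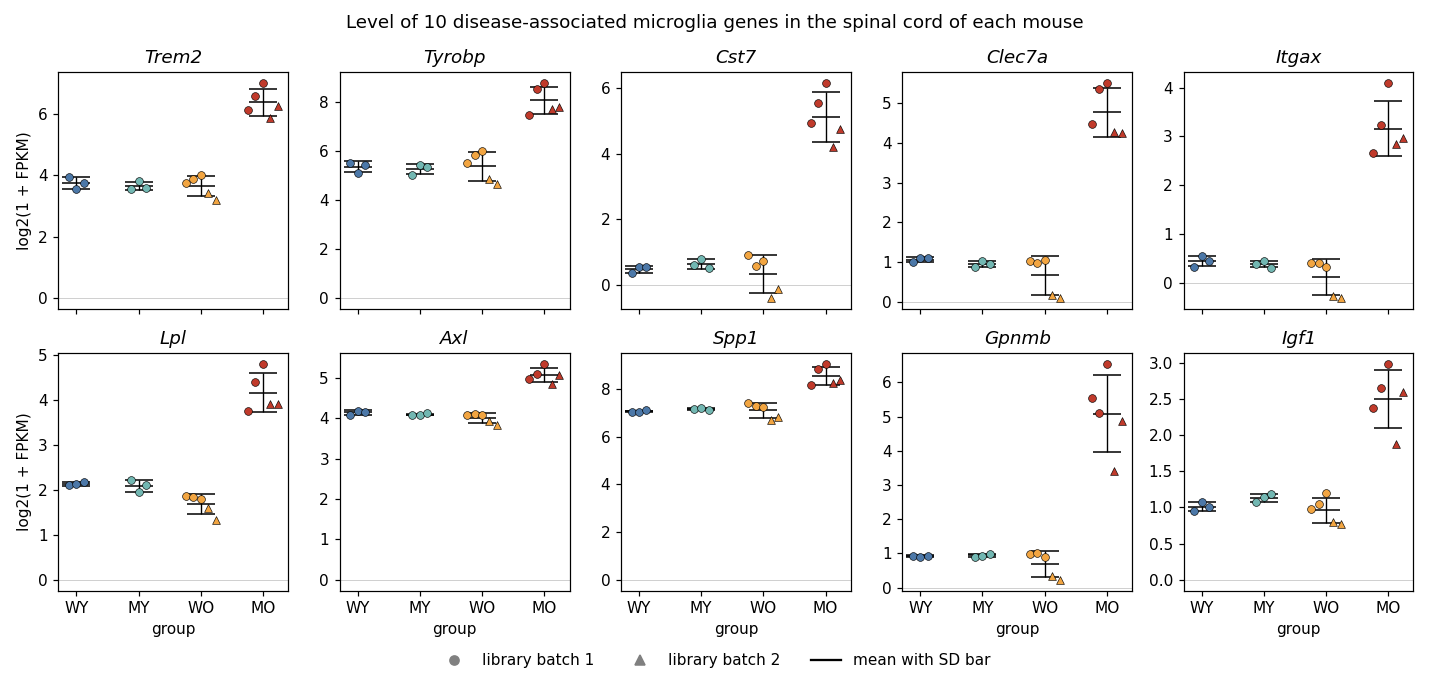
Level of each gene, in log2(1 + FPKM), in each of the 16 mice by group (WY and MY, 3 mice each; WO and MO, 5 mice each). Circles are batch 1 libraries, triangles batch 2 libraries, and bars give the mean with its SD. In all 10 panels the 5 MO mice lie above the 11 other mice, and the 2 WO mice of batch 2 lie below the 3 WO mice of batch 1.

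The order of the genes by level changed between the groups. In WY mice it ran from *Spp1* (7.07 ± 0.03, SD, n = 3) over *Tyrobp* (5.36 ± 0.23), *Axl* (4.14 ± 0.06), *Trem2* (3.76 ± 0.20) and *Lpl* (2.13 ± 0.04) to *Clec7a* (1.06 ± 0.06), *Igf1* (1.01 ± 0.06), *Gpnmb* (0.93 ± 0.02), *Cst7* (0.48 ± 0.11) and *Itgax* (0.45 ± 0.11). Neighbors in this order overlapped in range only for *Clec7a* with *Igf1* and for *Cst7* with *Itgax*. In MO mice the order was *Spp1* (8.55 ± 0.39, SD, n = 5), *Tyrobp* (8.08 ± 0.57), *Trem2* (6.38 ± 0.44), *Cst7* (5.12 ± 0.76), *Gpnmb* (5.09 ± 1.13), *Axl* (5.07 ± 0.18), *Clec7a* (4.77 ± 0.62), *Lpl* (4.15 ± 0.43), *Itgax* (3.16 ± 0.57) and *Igf1* (2.50 ± 0.41). All neighbors in the MO order overlapped except *Tyrobp* and *Trem2*. Thus *Cst7* and *Gpnmb*, which were below *Axl*, *Trem2* and *Lpl* in WY mice, were level with *Axl* and above *Lpl* in the MO means. In MY mice the order differed from that of WY mice only in that *Igf1* (1.13 ± 0.06) was above *Clec7a* (0.95 ± 0.08), and in WO mice the ranges of *Axl* and *Trem2*, and of each neighboring pair from *Igf1* down to *Itgax*, overlapped.

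Among the end-stage mice, the top places were similar over the genes, and the lower places varied. MO3, the oldest MO mouse (245 days), was the highest for 10 of 10 genes. MO2 was next in 9 of 10, the exception being *Gpnmb*, for which MO1 was next. The lowest MO mouse was MO4 for 5 genes, MO1 for 4 and MO5 for 1. MO4 and MO5 belonged to batch 2, and the part of batch in this order was not tested. The share of all genes for which MO3 was highest is not given, so nothing is read from these counts. The mean over the 10 genes was 5.05, 5.54, 6.03, 4.72 and 5.08 in MO1 to MO5. Over the 10 homeostatic microglia markers the means of the same mice were 3.98, 4.35, 4.23, 4.11 and 4.13, so that MO2 rather than MO3 was the highest. These means lay at 2.05 to 2.73 for the 10 genes and at 3.32 to 3.59 for the homeostatic markers in the 11 other mice.

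Levels in WO4 and WO5 were lower than in WO1 to WO3 for 10 of 10 genes. The median difference, batch 2 minus batch 1, was -0.615 over the 10 genes in WO mice, against 0 over all genes, of which 50.2% were lower in batch 2. Among the 841 genes called higher in MO1 to MO3 than in MY1 to MY3, a comparison without batch 2 mice, the median difference in WO mice was -0.211 and 93% were lower in batch 2. In MO mice the corresponding medians were -0.471 for the 10 genes, -0.001 for all genes and -0.235 for the 841 genes. The 841 genes were picked on high values in MO1 to MO3, so their MO median is pulled toward lower values in batch 2 by the choice, and nothing is read from it. Whether the batch adjustment or age produced the shift in WO mice was not tested.

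In MY vs. MO, leaving out MO5 gave 2.75 for *Trem2*, 2.88 for *Tyrobp*, 4.58 for *Cst7*, 3.95 for *Clec7a*, 2.83 for *Itgax*, 2.13 for *Lpl*, 0.97 for *Axl*, 1.41 for *Spp1*, 4.20 for *Gpnmb* and 1.34 for *Igf1*. With batch 1 mice alone, the MY vs. MO values were 2.93 for *Trem2*, 3.02 for *Tyrobp*, 4.92 for *Cst7*, 4.16 for *Clec7a*, 2.95 for *Itgax*, 2.23 for *Lpl*, 1.04 for *Axl*, 1.52 for *Spp1*, 4.78 for *Gpnmb* and 1.54 for *Igf1*. No gene changed direction in either.

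The age of control mice was examined in WY vs. WO, a comparison without end-stage mice. Its WO mice are also part of WO vs. MO, so the choice of the genes may have favored low WO values. None of the 10 genes was called by limma (0 of 10, beside 0.253% of all genes), and 1 gene, *Lpl*, had an unadjusted p under 0.05, as 2447 of all 18167 genes did, and no other tool was run. *Lpl* differed by -0.45 (SE 0.12, limma FDR = 0.134), with all 5 WO mice below all 3 WY mice, and its difference was -0.30 in batch 1 alone. The log2 fold changes of the other genes ran from -0.40 for *Clec7a* to 0.04 for *Spp1*, with FDR from 0.441 to 0.99. *Trem2* differed by -0.11 (95% interval -0.53 to 0.31) and *Tyrobp* by 0.02 (-0.69 to 0.73). Within batch 1, where WO mice were 190 days old, *Trem2* was at 0.11, *Tyrobp* at 0.43, *Cst7* at 0.26 and *Spp1* at 0.25 above WY, while *Clec7a* (-0.04), *Itgax* (-0.07) and *Axl* (-0.06) were slightly below. *Gpnmb* (0.04) and *Igf1* (0.06) were close to 0 difference in that batch, and none of the 10 was called there either.

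Whether the genes already differed between genotypes before symptoms was examined in WY vs. MY, also without end-stage mice and within batch 1, although its MY mice are part of MY vs. MO. No gene of the 10 was called by limma (0 of 10, beside 0.0055% of all genes, 1 gene outside the genes named here), and 0 of 10 had an unadjusted p under 0.05, as 1301 of all genes did, and no other tool was run. *Trem2* differed by -0.10 (95% interval -0.39 to 0.18), *Tyrobp* by -0.10 (-0.45 to 0.25) and *Itgax* by -0.07 (-0.23 to 0.10). *Cst7*, with the largest difference, was higher in MY by 0.15 (-0.06 to 0.37), and *Clec7a* differed by -0.11 (-0.24 to 0.03). For the growth factor *Igf1* the value was 0.12 (-0.01 to 0.25) and for *Spp1* 0.11 (-0.002 to 0.21), both with MY above WY on average. The intervals of *Lpl* (-0.21 to 0.13), *Axl* (-0.16 to 0.06) and *Gpnmb* (-0.08 to 0.12) also held 0. FDR ranged from 0.695 to 0.928. With 1 mouse left out, *Trem2* ran from -0.202 to -0.004 and *Cst7* from 0.077 to 0.216 in WY vs. MY. With 3 mice a group, differences of either sign within these intervals are not excluded.

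Genes that act downstream of TREM2 and TYROBP were then examined. This list and those that follow were chosen with earlier results of these data known, so their counts with MO mice are a description. Of 14 signaling genes, 9 rose in WO vs. MO, 0 fell and 5 were not called, with a median log2 fold change of 0.922, and the counts were the same in MY vs. MO, within batch 1 and without MO5. The phosphatases *Ptpn6* (SHP-1) and *Inpp5d* (SHIP1), which restrain this pathway, rose by 1.67 (limma FDR = 3.65e-05) and 1.20. *Lat2*, a scaffold for SYK substrates, rose by 1.42 and the kinase *Syk* by 0.95. *Hcst* (DAP10), the adaptor that partners with TYROBP and recruits PI3 kinase, rose by 1.37, and it lies 126 bases from *Tyrobp* on the opposite strand. The broadly expressed adaptor *Grb2* (0.03, FDR = 0.482) and the exchange factor *Vav3* (-0.08, FDR = 0.38) did not pass. No signaling gene was called in WY vs. WO or WY vs. MY (0 of 14 in each by limma). In WY vs. MY *Hcst*, singled out after its values were seen, differed by -0.61 (limma FDR = 0.475), with all 3 MY mice (0.51, 0.34 and 0.12) below all 3 WY mice (1.10, 0.79 and 0.92).

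Of 6 measured receptors of the TREM family or with a link to TYROBP, 3 rose in WO vs. MO and in MY vs. MO, with a median of 0.486 in WO vs. MO. They were *Cd300lb* (1.19), *Clec5a* (0.91) and *Treml2* (0.72), all with mean levels under 1 in WO mice. The call of *Treml2* in MY vs. MO was lost under quantile normalization (0.58), and with a filter at a mean of 1 none of the 3 was among the genes tested. *Siglech*, a microglial lectin that uses TYROBP, did not pass (0.26, FDR = 0.0479, under the fold threshold), nor did *Treml1* (0.13), which was called with 0.1 added to FPKM (0.78, FDR = 0.0126). *Trem1*, *Trem3*, *Sirpb1a* and *Pilrb1* were not analysed here.

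Among 7 ligands, proteases and regulators of TREM2, 3 rose and 0 fell (median 0.32). *Apoe*, a lipoprotein that TREM2 binds, was at 12.58, 12.57, 12.82, 11.59 and 12.13 in MO1 to MO5 and at 10.57, 10.38, 10.44, 10.33 and 10.21 in WO1 to WO5. It was high in all groups and highest in every MO mouse, a rise of 1.95 (SE 0.20) with limma FDR = 7.05e-05, of 2.19 within batch 1 and of 1.59 within batch 2. *Clu*, another lipoprotein ligand, rose by 0.93 and *Ms4a6d* by 2.02. The sheddase *Adam10* (0.13, FDR = 0.14), which cleaves TREM2, and the protease subunit *Ncstn* (0.15, FDR = 0.0192, under the fold threshold) were not called.

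Of 24 other genes commonly listed for disease-associated microglia, 18 rose in WO vs. MO and 17 in MY vs. MO, with 0 falling in either. Their median log2 fold changes were 1.455 and 1.233. The list shares *Apoe* with the TREM2 ligands above and *Ctsl* with the cysteine proteases below, so these counts are not separate. Lysozyme *Lyz2*, whose reads may be shared with the near-identical *Lyz1* and whose value is uncertain for that reason, rose by 4.64. *Cd52* rose by 3.37, the galectin *Lgals3* by 3.26 and the lysosomal glycoprotein *Cd68* by 3.22, with limma FDR = 4.85e-05 for *Lyz2*, 3.5e-05 for *Cd52*, 2.32e-05 for *Lgals3* and 2.34e-05 for *Cd68*. The ferritin heavy chain *Fth1* (0.38) and *Serpine2* (0.40) stayed under the fold threshold, and *Fth1* changed sign under quantile normalization (-0.11). The tetraspanin *Cd9* rose at end stage (from a WO mean of 5.79 to an MO mean of 7.29, limma FDR = 9.43e-05) and fell in WY vs. WO (-0.61, limma FDR = 0.00581), a call that was lost without WY3 (-0.58), in batch 1 alone (-0.58) and with all 4 groups in 1 fit (FDR = 0.09). No gene of this list was called in WY vs. MY (0 of 24 by limma).

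Partners and relatives of the single genes gave a mixed picture. For *Axl*, the related TAM receptors *Mertk* and *Tyro3* and the ligands *Gas6* and *Pros1* were measured, and 2 of 4 rose in WO vs. MO. The bridging ligand *Pros1* rose by 1.31 (FDR = 5.71e-05), whereas *Gas6* (0.13) and *Tyro3* (-0.24) did not pass. *Mertk* was called at 0.63 (FDR = 0.0141), but not in batch 1 alone (0.63, FDR = 0.0568) or without MO1 (0.51), WO4 (0.58) or WO5 (0.56). For *Itgax*, 2 of 4 related integrin genes rose, *Itgb2*, its own beta chain, by 2.07 and the alpha chain *Itgam* (CD11b) by 0.99. The alpha chains *Itgal* (0.41) and *Itgad* (0.33) did not pass. With 0.1 added to FPKM, *Itgal* was called (1.64, FDR = 6e-05).

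Of 5 measured relatives of *Clec7a* among myeloid C-type lectins and their adaptor, 1 rose, the adaptor *Fcer1g* (2.29), and *Clec4n* (0.45) and *Clec9a* (-0.01) did not. With 0.1 in place of 1 added to FPKM, 3 of the 5 passed. Among 8 receptors of osteopontin, 3 rose in WO vs. MO, *Cd44* by 1.64 (FDR = 1.46e-05), *Itga5* by 1.27 and *Itgb5* by 1.08. *Itgb1* (0.31) and *Itgav* (0.20), the most abundant of those not called, stayed under the thresholds. *Cd44* fell in WY vs. WO (-0.67, limma FDR = 0.0239), but the call was lost in batch 1 alone (FDR = 0.0587) and with any 1 of 6 mice left out, with FDR = 0.0516 without WO1, 0.0699 without WO2, 0.0533 without WO5, 0.0821 without WY1, 0.0745 without WY2 and 0.106 without WY3. The log2 fold change in these fits stayed at -0.62 to -0.69.

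Among 5 partners of lipoprotein lipase, 2 rose. *Apoc2*, its cofactor, rose by 2.68 from a WO mean near 0, and its inhibitor *Angptl4* by 0.70 (FDR = 0.0235). The call of *Angptl4* was lost in batch 1 alone (0.62, FDR = 0.137) and in 5 fits with 1 mouse left out (log2 fold change 0.58 without MO1, 0.69 without MO2, 0.63 without WO2, 0.57 without WO4 and 0.69 without WO5). *Lmf1*, needed for folding of the lipase, was at -0.08 and the related lipase *Lipg*, with a mean near 0 in every group, at 0.01, neither called.

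In the IGF system 2 of 11 genes rose in WO vs. MO and 3 in MY vs. MO. The binding proteins *Igfbp2* and *Igfbp5* rose by 1.19 each, *Igfbp7* (0.51) and *Igfbp4* (-0.20) did not pass in WO vs. MO, and the receptor *Igf1r* was at -0.26 (FDR = 0.0226, under the fold threshold). *Igfbp7* was called in MY vs. MO (0.72, FDR = 0.000473), and in WO vs. MO without WO1 (0.62). Of 8 cystatins and cysteine proteases, 4 rose in WO vs. MO and 5 in MY vs. MO. Of the proteases, *Ctsh* rose by 2.01, *Ctsc* by 1.63 and *Ctsl* by 1.24. Cystatin C, *Cst3*, was called at 0.61, but not under quantile normalization (0.09), in batch 1 alone (0.54) or in 4 fits with 1 mouse left out (0.56 without MO2, 0.58 without MO3, 0.56 without WO4 and 0.56 without WO5). *Lgmn* (0.39) and *Cstb* (0.48) stayed under the fold threshold in WO vs. MO, but *Cstb* was called in MY vs. MO (0.64, FDR = 0.00299). Of 5 measured relatives of *Gpnmb*, its receptor and the MiT factors that drive lysosomal genes, 1 rose, the receptor *Sdc4* (0.81), and the MiT factors *Tfe3* (0.23) and *Tfeb* (-0.002) were not called.

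Leaving out MO5 changed none of the WO vs. MO counts of these pathway lists. In MY vs. MO, 3 of 7 genes of the TREM2 ligand list, 2 of 4 TAM genes and 2 of 4 integrin genes rose. So did 1 of 5 lectin genes, 3 of 8 osteopontin receptors, 2 of 5 lipase partners and 1 of 5 *Gpnmb* relatives. The IGF count in MY vs. MO fell from 3 to 2 without MO5 (*Igfbp5*, FDR = 0.0589). The same call of *Igfbp5* was lost in batch 1 alone (FDR = 0.0515), without MO3 (log2 fold change 0.56) and without MO2, MY1, MY2 or MY3 (FDR = 0.0561, 0.128, 0.0743 and 0.102), while its log2 fold change over all these fits ran from 0.56 to 0.85, against 0.74 with all mice. Apart from *Cd9* and *Cd44*, no gene of a pathway list was called by limma in WY vs. WO, and none was called in WY vs. MY. Besides *Hcst*, the largest difference of a gene named from these lists in WY vs. MY was that of *Igfbp2* (-0.585, limma FDR = 0.2), again with all MY mice below all WY mice.

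Microglia identity was examined with 10 homeostatic markers. In WO vs. MO 6 rose and 0 fell (median 0.674), in MY vs. MO 6 rose (median 0.624), and none was called by limma in WY vs. WO or WY vs. MY (0 of 10 in each). Their summed level was 39.77, 43.49, 42.29, 41.08 and 41.28 in MO1 to MO5, 34.75, 35.31, 35.89, 33.8 and 33.15 in WO1 to WO5, 35.14, 35.81 and 35.13 in MY mice and 34.18, 34.76 and 34.17 in WY mice, so all MO mice were above all others. In batch 1 alone 5 were called in WO vs. MO and 7 in MY vs. MO, and without MO5 6 in each. The receptor for CSF1 and IL-34 *Csf1r*, the most abundant of them, rose by 1.28, *Olfml3* by 1.39, the fractalkine receptor *Cx3cr1* by 1.14, *Gpr34* by 1.00 and *P2ry13* by 0.76, which was under the fold threshold in MY vs. MO (0.583) but called there in batch 1 alone (0.65) and without MO5 (0.585). *Selplg*, at 0.59, passed narrowly and fell under the fold threshold in batch 1 alone (0.50), under quantile normalization (0.58) and in 5 fits with 1 mouse left out (0.57 without MO2, 0.58 without MO3, 0.58 without MO4, 0.57 without WO4 and 0.54 without WO5).

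The purinergic receptor *P2ry12*, singled out after its values were seen, was at 3.72, 4.34, 3.79, 4.19 and 3.97 in MO1 to MO5 and at 3.74, 4.13, 4.03, 3.84 and 3.79 in WO1 to WO5. The groups overlapped, and the difference was 0.10 (SE 0.12) with limma FDR = 0.623, -0.02 in batch 1, 0.27 in batch 2 and 0.11 without MO5. *Tmem119*, singled out in the same way, was at 3.90, 4.27, 3.90, 3.82 and 4.15 in MO mice and at 3.62, 3.54, 3.63, 3.49 and 3.30 in WO mice. All MO mice were above all WO mice, but its difference of 0.49 (SE 0.09) stayed under the fold threshold. In MY vs. MO *P2ry12* was at -0.02 (limma FDR = 0.934), and *Tmem119* was called at 0.60 (limma FDR = 0.00393), a call lost without MO2 (0.54), MO5 (0.57) or MY3 (0.58). The transcription factor *Sall1*, also singled out in this way, was at 3.48, 3.73, 3.61, 3.52 and 3.50 in MO mice and at 3.42, 3.50, 3.57, 3.70 and 3.69 in WO mice, with overlapping ranges. The 10 disease-associated genes differed by 1.07 to 4.78 in WO vs. MO, and the 6 homeostatic markers that were called by 0.59 to 1.39. *Axl* lay within that range, *Spp1* and *Igf1* were just above it, and the 7 other genes were well above it. The 4 homeostatic markers not called, among them *P2ry12* (0.10) and *Tmem119* (0.49), lay below it. The 10 disease-associated genes were chosen on their end-stage values, so nothing is read from their distance to the homeostatic markers.

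**Figure D2:**
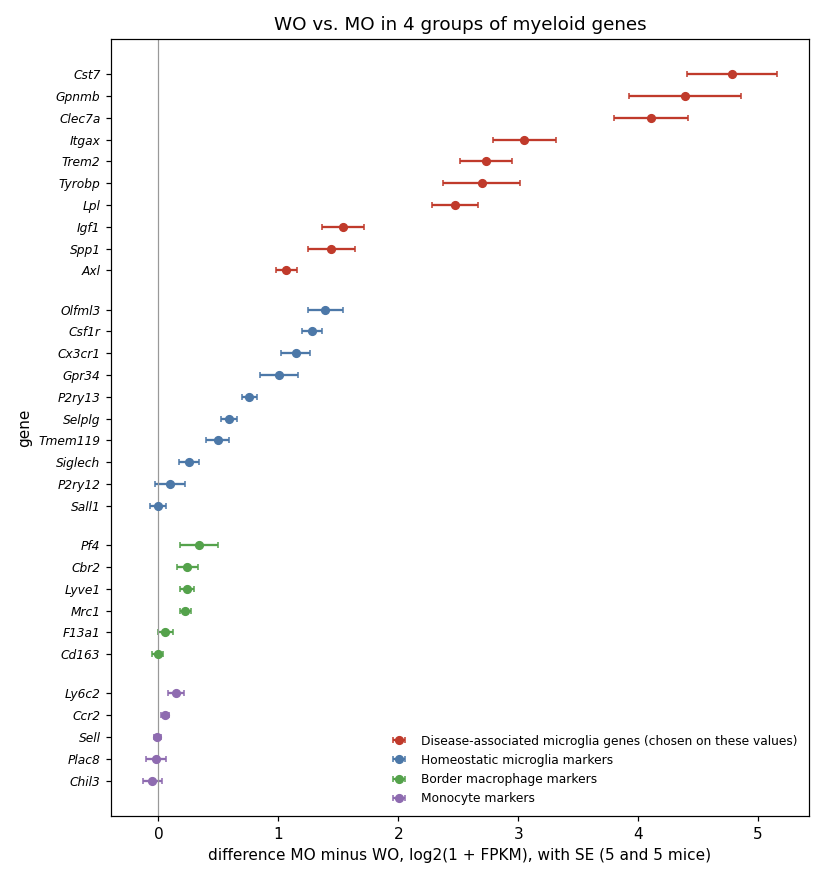
Difference MO minus WO in log2(1 + FPKM), with its SE (5 mice in each group), for the 10 disease-associated microglia genes, which were chosen on these values, and for markers of homeostatic microglia, border macrophages and monocytes. The 10 genes lie at 1.07 or above, the homeostatic markers at 1.39 or below, and the monocyte markers near 0.

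Other myeloid cells can also carry these transcripts, so their markers were counted. Counts of cell type markers are for all mice with 1 added to FPKM, unless another fit is named. Of 6 border macrophage markers 0 were called in WO vs. MO and in MY vs. MO, and 3 of the 6 had a mean under 0.5 in every group. The most abundant, *Pf4*, differed by 0.34 (limma FDR = 0.147). The summed level of the 6 markers was 3.41, 3.76, 3.93, 3.55 and 3.37 in MO1 to MO5 and 2.37, 3.09, 2.77, 2.46 and 1.86 in WO1 to WO5, so it was higher in every MO mouse. It was 1.89, 2.51 and 2.63 in MY mice and 2.55, 2.2 and 2.9 in WY mice. With 0.1 added to FPKM, 2 of the 6 passed in both comparisons, and their part in the levels of the 10 genes was not tested.

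All 5 measured monocyte markers, of which *Ly6c2* was the most abundant, had a mean under 0.5 in every group, and 0 of 5 were called. Their summed level was 0.55, 0.56, 0.65, 0.9 and 0.39 in MO1 to MO5, 0.51, 1.05, 0.2, 0.49 and 0.22 in WO1 to WO5, 0.58, 0.58 and 0.41 in MY mice and 0.31, 0.17 and 0.34 in WY mice, with overlapping groups. Of 6 neutrophil markers 0 were called, and their summed level was 5.61, 5.64, 1.3, 4.26 and 0.98 in MO1 to MO5, 5.66, 12.99, 3.37, 5.47 and 5.75 in WO1 to WO5, 4.85, 2.89 and 2.96 in MY mice and 1.37, 2.7 and 2 in WY mice. No dendritic cell marker (0 of 4) and no lymphocyte marker (0 of 5, all with a mean under 0.5 in every group) was called either. With 0.1 added to FPKM, 1 of the 5 lymphocyte markers was called in each comparison. The part of these cells in the levels of the 10 genes was not tested.

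Markers of other cells of the spinal cord moved at end stage as well. Of 6 astrocyte markers 3 rose in WO vs. MO and 2 in MY vs. MO. Their summed level was 45.67, 46.08, 45.02, 44.36 and 44.99 in MO1 to MO5 and 40.75, 41.01, 41.53, 41.83 and 40.68 in WO1 to WO5, with *Gfap* the most abundant. In young mice it was 42.58, 42.49 and 42.41 (MY) and 42.52, 43.14 and 42.74 (WY). Of 6 motor neuron markers 1 fell in WO vs. MO, *Chat*, the enzyme that makes acetylcholine (-0.67, limma FDR = 3.13e-05), which was not called in MY vs. MO (-0.41), and 2 were called with 0.1 added to FPKM or under quantile normalization. Summed levels of the motor neuron markers were 20.05, 20.08, 18.45, 20.12 and 19.52 in MO1 to MO5 and 22.93, 21.72, 21.75, 21.56 and 22.15 in WO1 to WO5, and 21.17, 21.53 and 20.95 in MY and 19.29, 21.12 and 21.6 in WY mice, with *Prph* the most abundant. MO3, which was highest for all 10 disease-associated genes, had the lowest sum of the 16 mice. However, MO2, which was next for most of these genes, had nearly the same sum as MO4 (20.08 and 20.12). The young control WY1 (19.29) was below MO1, MO2, MO4 and MO5. A relation between the sum and the 10 genes was not tested. Among 6 oligodendrocyte markers 1 was called lower in WO vs. MO, and that call was lost without MO5 and in 5 further fits with 1 other mouse left out, while 2 were called lower in MY vs. MO (3 without MO5, 4 in batch 1 alone). Their most abundant gene, *Mbp*, was at 5.36 in WO4 and at 12.16 or more in all other mice. The part of these cell types in the levels of the 10 genes was not tested.

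None of 4 oligodendrocyte precursor, 4 endothelial, 4 fibroblast, 4 Schwann cell, 4 skeletal muscle, 4 sensory neuron and 4 red blood cell markers measured was called in WO vs. MO by limma with all mice. However, 2 Schwann cell, 3 skeletal muscle, 3 sensory neuron and 2 red blood cell markers had a mean under 0.5 in every group, and the 2 red blood cell markers did not vary between mice, so they could not have been called. All 4 endothelial markers had a lower mean in MO than in WO mice within batch 1 and within batch 2. In batch 1 alone 2 were called, and 1 was called without MO3, without MO5, without WO4 and under quantile normalization. The summed level of the endothelial markers was 10.2, 11.04, 11.49, 11.08 and 11.06 in MO1 to MO5, 13.3, 13.33, 13.5, 11.37 and 13.1 in WO1 to WO5, 11.21, 11.09 and 11.1 in MY mice and 12.53, 12 and 11.92 in WY mice. With 0.1 added to FPKM, 1 endothelial, 2 skeletal muscle and 1 sensory neuron markers were called. Of the 5 sex-linked genes 0 were called, with or without MO5. Counts of these lists in MY vs. MO were 0 as well, apart from 1 sensory neuron marker with 0.1 added to FPKM. In WY vs. WO 1 astrocyte and 2 oligodendrocyte markers fell and no other cell type marker was called, and in WY vs. MY limma called 0 markers of any cell type.

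Genes most like each of the 10 were found by the root mean square difference between 2 genes over the 16 mice, each centered on its own mean, a measure in log2 units that is small when both the pattern and its size match. *Trem2* was closest to the complement genes *C1qa* (0.122) and *C1qc* (0.129) and to the pore-forming macrophage protein *Mpeg1* (0.13). *Tyrobp* was closest to *C1qa* (0.209), *C1qb* (0.227) and *Fcer1g* (0.227), the last being another signaling adaptor of myeloid receptors. *Spp1* was close to the lysosomal genes *Gusb* (0.131) and *Ctsc* (0.138), and *Lpl* to *Ctsd* (0.184), *Cd84* (0.199) and *Slc15a3* (0.207). For *Axl* they were *Tlr1* (0.05), *Csf2rb2* (0.059) and *Ctsb* (0.066), and for *Igf1* they were *Nckap1l* (0.098), *Cd22* (0.108) and *Adgre1* (0.13). *Itgax* was nearest to the chemokine *Ccl3* (0.176). *Cst7*, *Clec7a* and *Gpnmb*, with the largest differences, had few genes of like size. *Lyz2* was nearest to *Cst7* (0.278) and *Gpnmb* (0.389), and *Sprr1a*, a gene of injured neurons, was nearest to *Clec7a* (0.303).

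Among the 10 genes themselves, the closest pairs were *Spp1* with *Igf1* (0.173), *Trem2* with *Tyrobp* (0.194) and *Trem2* with *Itgax* (0.225). The receptor and its adaptor were closer to each other than either was to any of the 8 other genes, and *Itgax* was nearer to *Trem2* (0.225) than to *Tyrobp* (0.286). Outside the 10 genes, *Trem2* was closer to *C1qa* (0.122) than to *Tyrobp*. These distances depend on the size of the end-stage difference, on which the genes were chosen, so nothing is read from them. The most distant pair was *Cst7* with *Axl* (1.742), the genes with the largest and the smallest difference.

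The 10 genes are spread over 7 mouse chromosomes in the GENCODE annotation of GRCm38, the build of the authors' alignment (mm10). *Axl*, *Tyrobp* and *Itgax* lie on chromosome 7 and *Gpnmb* and *Clec7a* on chromosome 6, each pair being far apart. The annotation lists 9 of the 10 as protein-coding and *Clec7a* as a polymorphic pseudogene, a class for genes that are coding in some strains. *Igf1* overlaps *Igf1os* on the opposite strand, and *Spp1* overlaps the unconfirmed transcript *Gm42793* on the same strand. The library kit keeps strand, but whether quantification used it is not given in the sources used here, so reads from these overlaps cannot be told apart and the values of *Igf1* and *Spp1* carry that uncertainty.

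The 250 bases before the RefSeq starts of the 10 genes were searched on both strands for 3 short motifs of factors active in macrophages. RefSeq windows (GRCm38.p6) were at hand for 8 of the 10 genes, and *Tyrobp* and *Lpl* were not matched. AGGAAGT, a core bound by PU.1 and other ETS factors, was found in the windows of *Cst7* and *Spp1* (2 of 8 genes), against 7.69% of all 32851 windows. TGANTCA, a widened form of the AP-1 motif that allows any base in the middle, was found in the windows of *Itgax*, *Igf1* and *Trem2* (3 of 8), against 6.75% of all windows. Only the *Itgax* match (TGAGTCA) has C or G there, as the AP-1 consensus does, and the *Igf1* and *Trem2* matches (TGAATCA) do not. RefSeq starts are not always the GENCODE starts given above, and the *Igf1* window (chr10:87860861-87861110) and the second *Spp1* window lie inside the GENCODE genes. CACGTG, an E-box read by MiT factors, was found in 0 of 8, against 6.02% of all windows. No window held more than 1 of these motifs, so none overlapped. The matches describe letters in the sequence and do not show binding. Matches were counted by gene for the 8 genes, which had 10 windows, whereas the shares are by window. Moreover, 8 chosen genes are too few to compare with the shares of all windows. The windows of *Cst7*, *Spp1* (the first of its 2 windows), *Trem2* and *Itgax*, all on the plus strand, are shown as examples. They hold the 2 patterns that were found and are given 5′ to 3′, with the match in capitals. The match ends 56 bases before the RefSeq start of *Cst7* (chr2:150570165-150570414), 105 before *Spp1* (chr5:104434861-104435110), 2 before *Trem2* (chr17:48346151-48346400) and 49 before *Itgax* (chr7:128129300-128129549).
Cst7: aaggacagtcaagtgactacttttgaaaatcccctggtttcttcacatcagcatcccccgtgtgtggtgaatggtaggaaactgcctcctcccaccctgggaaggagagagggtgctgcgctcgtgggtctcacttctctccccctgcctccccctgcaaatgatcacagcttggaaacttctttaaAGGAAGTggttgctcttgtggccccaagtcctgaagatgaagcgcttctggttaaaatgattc
Spp1: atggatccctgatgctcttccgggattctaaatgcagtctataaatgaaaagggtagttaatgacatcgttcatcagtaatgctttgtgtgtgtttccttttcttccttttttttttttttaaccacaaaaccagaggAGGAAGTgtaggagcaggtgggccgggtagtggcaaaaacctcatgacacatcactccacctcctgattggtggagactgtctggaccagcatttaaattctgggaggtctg
Trem2: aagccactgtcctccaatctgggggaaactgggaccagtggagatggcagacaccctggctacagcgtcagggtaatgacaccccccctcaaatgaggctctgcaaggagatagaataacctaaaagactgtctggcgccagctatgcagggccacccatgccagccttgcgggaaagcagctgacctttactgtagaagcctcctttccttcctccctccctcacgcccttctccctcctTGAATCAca
Itgax: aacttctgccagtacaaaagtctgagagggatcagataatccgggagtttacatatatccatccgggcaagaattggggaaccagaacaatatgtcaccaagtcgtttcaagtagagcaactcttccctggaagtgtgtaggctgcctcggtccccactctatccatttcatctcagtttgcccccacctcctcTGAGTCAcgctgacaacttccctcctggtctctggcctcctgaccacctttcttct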

How the data were processed

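Whole spinal cord RNA of 16 mice was sequenced from TruSeq stranded mRNA libraries on a NextSeq 500. The authors used Trimmomatic for trimming, TopHat for alignment (mm10) and Cufflinks for FPKM, and deposited log2 values of 1 + FPKM after batch adjustment with ComBat. Tool versions and ComBat covariates were not given. The table held 18167 genes, 915 values below 0, and no read counts. Groups were compared from these values with limma 3.58.1 in R 4.3.3, each pair of groups in its own fit, with Benjamini-Hochberg adjustment over all genes, and a gene was called at an FDR of 0.05 or less and a change of 1.5 times or more. The fits were tested on simulated data. Alternatives were all 4 groups in 1 fit, 0.1 added to FPKM, a filter at a mean of 1, quantile normalization, the replicate number as a block, batch 1 or batch 2 alone, batch as a term, and each mouse left out. Other steps used Python 3.11.15, NumPy 2.4.6, pandas 2.3.3 and matplotlib 3.10.9.

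The 10 genes and the lists were chosen with earlier results of these data known. Pathway lists were TREM2-TYROBP signalling, TREM family and other Tyrobp-linked receptors, TREM2 ligands, proteases and regulators, and other disease-associated microglia genes. Further ones were TAM receptors and ligands, integrin genes related to Itgax, myeloid C-type lectin receptors, osteopontin receptors and lipoprotein lipase partners. The last were the IGF system, cystatins and cysteine proteases, and Gpnmb relatives, receptor and MiT factors. Marker lists were homeostatic microglia, border macrophage, monocyte, neutrophil, dendritic cell, lymphocyte, motor neuron, astrocyte, oligodendrocyte, oligodendrocyte precursor, endothelial, fibroblast, Schwann cell, skeletal muscle, sensory neuron, red blood cell and sex-linked genes. Genes named from a pathway list were up to 4 called in WO vs. MO with the largest change, the 2 most abundant not called, any called without end-stage mice, and fixed direct partners. From marker lists they were the most abundant gene and genes called, and *P2ry12*, *Tmem119* and *Sall1* were singled out after their values were seen. Sex-linked genes were named to check the sex label. Up to 3 genes most like each of the 10 were named as well. Listed genes absent from the table were not analysed here, and some other genes were left out of the lists and are not reported here.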

Additional observations from a re-analysis of the deposited data

Results flagged for a closer look

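Among the genes given with fold changes in the report, the difference between old and young mice ran in opposite directions in the genotypes for 15. Every MO mouse lay on one side of the MY mean and every WO mouse on the other side of the WY mean. Listed genes without a printed fold change were not counted, although some, such as *Gfap* and *Aqp4*, met the same rule. The share of all genes that met it is not given, so nothing is read from the count. In mutant mice the difference holds end-stage disease as well as age, and both old groups include batch 2 mice. The change in wild-type mice (WO minus WY) and in mutant mice (MO minus MY), in log2 units, was -0.4 and 3.82 for *Clec7a*, -0.34 and 2.78 for *Itgax*, -0.45 and 2.06 for *Lpl*, -0.14 and 0.98 for *Axl*, -0.17 and 0.76 for *Clec5a*, -0.21 and 1.89 for *Apoe*, -0.15 and 0.36 for *Serpine2*, -0.61 and 1.16 for *Cd9*, -0.05 and 0.36 for *Itgal*, -0.67 and 1.19 for *Cd44*, -0.45 and 0.74 for *Igfbp5*, -0.25 and 1.06 for *Ctsl*, -0.11 and 0.98 for *Cx3cr1*, -0.14 and 0.58 for *P2ry13* and 0.44 and -0.41 for *Chat*. These differences were not tested. For *Chat*, WY1 (3.08) was below WY2 and WY3 (3.72 each), so the wild-type change rests in part on that mouse. In batch 1 alone, WO minus WY was -0.04 for *Clec7a*, -0.07 for *Itgax*, -0.30 for *Lpl*, -0.06 for *Axl*, -0.10 for *Clec5a*, -0.13 for *Apoe*, -0.14 for *Serpine2*, -0.58 for *Cd9*, -0.04 for *Itgal*, -0.67 for *Cd44*, -0.57 for *Igfbp5*, -0.16 for *Ctsl*, -0.05 for *Cx3cr1*, -0.11 for *P2ry13* and 0.43 for *Chat*. The disease-associated genes *Clec7a*, *Itgax*, *Lpl* and *Axl* among them were chosen on the end-stage values.

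Single mice lay far from the 4 others of their group in 13 of 192 groups of 5 values tested, where the gap to the nearest mouse divided by the range of the group was above 0.71. These were *Vav3* in WO2 (2.81, nearest mouse 2.63, gap over range 0.787), *Cd9* in WO2 (5.91, nearest mouse 5.79, gap over range 0.758), *Tyro3* in MO1 (4.22, nearest mouse 4.55, gap over range 0.807), *Lipg* in WO3 (0.01, nearest mouse 0.03, gap over range 0.74), *Igfbp5* in MO3 (5.64, nearest mouse 4.88, gap over range 0.77), *Tfe3* in MO4 (3.8, nearest mouse 4.09, gap over range 0.857), *Mbp* in WO4 (5.36, nearest mouse 12.42, gap over range 0.797), *Xist* in MO5 (3.21, nearest mouse 0.26, gap over range 0.826), *Ddx3y* in MO5 (1.95, nearest mouse 4.3, gap over range 0.851), *Uty* in MO5 (1.05, nearest mouse 2.22, gap over range 0.848), *Eif2s3y* in MO5 (1.82, nearest mouse 3.99, gap over range 0.864), sum of neutrophil markers in WO2 (12.99, nearest mouse 5.75, gap over range 0.752) and sum of endothelial markers in WO4 (11.37, nearest mouse 13.1, gap over range 0.813). Chance alone singles out about 1 in 20 groups. The values tested were levels of the genes given with fold changes in the report, of *Sall1*, *Mbp* and the 5 sex-linked genes, the sums over 7 marker lists and the mean over the 10 disease-associated genes. The 4 entries in MO5 are sex-linked genes and belong to the mismatch of that library with its label. None of the entries was one of the 10 disease-associated genes.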

How the results depend on the processing

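The 10 disease-associated genes passed in all fits of WO vs. MO (18) and MY vs. MO (15), and none passed in any fit of WY vs. WO (15) or WY vs. MY (12). What came out with MO mice follows from the choice of the genes on these values, and nothing is read from it. Genes called went from 836 to 1529 in WO vs. MO and from 890 to 1483 in MY vs. MO with 0.1 added to FPKM, which stretches low values. With 1 mouse left out they were 786 to 924 and 805 to 1011. In WY vs. WO they went from 46 to 73 in batch 1 alone and to 7 to 64 with 1 mouse left out. In WY vs. MY they went from 1 to 4 with all 4 groups in 1 fit, 2 among genes with a mean of 1 or more, and 1 to 5 with 1 mouse left out. Some values of genes given with fold changes changed sign. In WO vs. MO these were *P2ry12* (-0.015) in batch 1 alone and *Fth1* under quantile normalization (-0.114), and in MY vs. MO *Cst3* under quantile normalization (-0.005). Genes named with levels only changed sign as well. For example, *Sall1* (-0.006 in WO vs. MO) was at 0.11 in batch 1 and at 0.01 without MO5. *Mbp* was lower in MO than in WO mice in batch 1 (-0.318) and higher in batch 2 (4.34). In batch 2 alone, without a fit, genes named in the report with WO vs. MO values of the opposite sign were *Gas6* -0.014, *Clec9a* 0.024, *Igfbp4* 0.053 and *Tfeb* 0.076. With 1 mouse left out, ranges that crossed 0 were *Clec9a* -0.032 to 0.016 and *Tfeb* -0.061 to 0.075 in WO vs. MO, *P2ry12* -0.106 to 0.047 in MY vs. MO, *Tyrobp* -0.136 to 0.200, *Cst7* -0.285 to 0.044 and *Spp1* -0.039 to 0.131 in WY vs. WO, and *Tyrobp* -0.225 to 0.018, *Lpl* -0.103 to 0.023 and *Gpnmb* -0.002 to 0.035 in WY vs. MY. Counts of markers called also moved. With 0.1 added to FPKM, WO vs. MO and MY vs. MO both gave 3 lectin genes, 2 *Gpnmb* relatives, 2 border macrophage, 1 lymphocyte and 1 sensory neuron markers, and WO vs. MO also 2 motor neuron, 1 endothelial and 2 skeletal muscle markers. Quantile normalization gave 2 motor neuron and 1 endothelial markers in WO vs. MO and 4 oligodendrocyte markers in MY vs. MO. Without MO1, 1 border macrophage and 1 astrocyte markers were called in MY vs. MO. The replicate number used as a block gave 840 genes called in WO vs. MO, 1108 in MY vs. MO, 63 in WY vs. WO and 1 in WY vs. MY. With the block 2 neutrophil markers were called in WO vs. MO and 5 oligodendrocyte markers in MY vs. MO, and *Cd9* (FDR = 0.0837) and *Cd44* (FDR = 0.11) were not called in WY vs. WO. In WY vs. WO both the block and batch 1 alone turned *Trem2* (0.111), *Cst7* (0.260), *Gpnmb* (0.043) and *Igf1* (0.063) from lower to higher in WO, since both leave WO4 and WO5 without weight. Mice of the same number did not all deviate together from their group means, with correlations over 0.1 in 0 of 5, 2 of 3, 2 of 3 and 0 of 3 pairs in the same order, and the best partner bore the same number in 1, 3, 2 and 0. The cause of the other changes was not tested. The number of reads behind single genes was unknown, groups held 3 or 5 mice, and values had passed a batch adjustment whose covariates were not given.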
